A study of Drosophila melanogaster with 2 samples.

Results

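The 5 genes described here encode the protein subunits of the Drosophila melanogaster dosage compensation complex, and they were chosen by name: msl-1, msl-2, msl-3, mle and mof, of 13945 protein-coding genes on the chromosome arms X, 2L, 2R, 3L, 3R and 4. The study mapped where a tagged form of the zinc finger protein CG2129 sat on the genome. Whole embryos aged 0 to 4 h, of a strain labelled CG2129-GFP that carries a CG2129-eGFP fusion, were used for chromatin immunoprecipitation with an antibody against GFP followed by sequencing (ChIP-seq). There was 1 group with biological replicates 1 and 2, so no condition was compared with another. The labels give neither the sex of the embryos nor what drives the fusion, and a control experiment that they name was not analysed here. The values are the authors' deposited peaks on the dm6 assembly, each with a summit and a signal whose scale is not stated. Peaks of replicate 1 and of replicate 2 and peaks of the pooled reads each come as a long ranked list and a short thresholded list. A thresholded peak has passed an irreproducible discovery rate (IDR, an estimate of the share of peaks at least that strong that fail to recur between rankings) of 0.01, which is 2 on the −log10 scale. A second pooled thresholded list, called conservative, was matched to a ranked list of its own, as described with the processing. A gene is said to have a peak when a summit lies within 500 bp of 1 of its transcription start sites (TSSs).

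In flies, males have a single X chromosome and raise its transcription to match the X chromosomes of females. The male-specific lethal (MSL) complex does this by gathering on the male X and acetylating histone H4 at lysine 16. MSL1 is its scaffold, MSL2 a ubiquitin ligase made in males and the subunit that limits assembly, MSL3 a chromodomain protein that reads methylated histone H3 over active genes, MLE an RNA helicase that remodels the roX RNAs, and MOF the acetyltransferase. MOF also works in a further assembly, the NSL complex, at promoters on all chromosomes and in both sexes. In females the RNA-binding protein SXL, with UNR, blocks translation of msl-2 mRNA.

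The sequences just upstream of the starts are shown for the 3 members with the strongest peaks and for msl-2, because they differ in the promoter elements they hold. They are from NCBI's RefSeq copy of Release 6, whose arm coordinates are those of dm6, read on the minus strand, on which all 4 genes lie, and they end at the base before the TSS. The msl-1, msl-3, mof and msl-2 stretches are chr2L:18688801-18688950, chr3L:7125534-7125683, chrX:5876854-5876999 and chr2L:3466113-3466156. All 4 lie between annotated protein-coding genes, and the last 2 run up to the neighbouring one. Capitals mark matches on either strand to TATCGATA, the element bound by the factor DREF, to its shorter form TATCGAT, to GGTCACAC, the core of the site of the factor M1BP, and to core promoter motif 7, searched as CAGCNCTA, CAGCNCTG, CATCNCTA and CATCNCTG.
msl-1: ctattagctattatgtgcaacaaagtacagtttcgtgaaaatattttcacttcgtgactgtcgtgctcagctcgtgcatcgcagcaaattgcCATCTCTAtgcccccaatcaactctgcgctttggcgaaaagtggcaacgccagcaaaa
msl-3: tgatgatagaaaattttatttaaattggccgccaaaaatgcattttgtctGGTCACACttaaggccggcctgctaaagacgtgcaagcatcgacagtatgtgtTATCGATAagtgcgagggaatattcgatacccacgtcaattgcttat
mof: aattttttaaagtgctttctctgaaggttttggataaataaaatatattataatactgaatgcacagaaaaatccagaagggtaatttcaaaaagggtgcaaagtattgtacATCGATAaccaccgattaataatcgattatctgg
msl-2: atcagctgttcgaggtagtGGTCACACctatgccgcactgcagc

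At msl-3 the full palindrome TATCGATA began 47 bp upstream of the TSS, and the pooled summit, 40 bp upstream, lay on its last base. Replicate 1 had its msl-3 summit at the same place, but the stronger summit of replicate 2 was 146 bp downstream of the TSS. At mof the shorter form, which reads ATCGATA on the gene's strand, began 34 bp upstream, and the pooled summit at 30 bp upstream lay within it. The mof summit was 94 bp upstream in replicate 1 and 3 bp downstream in replicate 2. Motif distances are given from pooled summits alone. The msl-1 stretch held neither the palindrome nor its shorter form, nor the 5-letter core CGATA that TATCGAT contains. Its capitals are a motif 7 match, CATCTCTA, that began 58 bp upstream of the TSS, 40 bp from the pooled summit. At msl-2 GGTCACAC began 25 bp upstream, in the 44 bp between msl-2 and ND-PDSW, and a further copy began at base 26 of the transcript. A copy also began 100 bp upstream of msl-3. GAGAGAGA, of the kind of GA repeat to which the MSL complex is recruited on the X, was searched too and was in none of the members' promoters, taken as 250 bp before to 50 bp from the TSS.

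These matches describe letters, and each is set here beside its frequency elsewhere. TATCGATA was in 7.98% of 19607 protein-coding promoters of that length, and within 100 bp of 32.0% of the 2066 pooled thresholded summits on the arms. TATCGAT was in 16.0% of promoters and at 54.6% of summits, and CGATA in 45.7% and 81.3%. Motif 7 was in 18.0% of promoters and at 33.8% of summits, GGTCACAC in 6.72% and 6.44%, and GAGAGAGA in 3.9% and 1.26%. Promoter and summit windows differ in length, so these shares do not show whether a motif was more or less common at summits. Within 100 bp of the strongest pooled ranked summit, TATCGAT was held by 2 of the 5 members, msl-3 and mof, and motif 7 by msl-1 alone. There GGTCACAC was held by msl-2 and msl-3, and CGATA by msl-3, mle and mof. Of these summits only those of msl-1 and msl-3 were thresholded. The shares above are for thresholded summits, so for msl-2, mle and mof they come from an unlike set. In the promoter windows TATCGAT was held by 3 members, since mle, on the opposite strand, has it from base 2 of its upstream start, where no list had a summit.

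Of the 5 members, msl-1 and msl-3 had a peak in the pooled thresholded list, where 17.3% of protein-coding genes had one. Only msl-1 had one in the conservative list, where the share of protein-coding genes was 16.8%. In the thresholded list of replicate 1 the members were again msl-1 and msl-3 (14.9% of protein-coding genes), and in that of replicate 2 msl-1 alone (12.2%). All 5 had a summit in the pooled ranked list, but so did 60.9% of protein-coding genes, and 61.2% in the second pooled ranked list. In the ranked list of replicate 2 all 5 were present, and in that of replicate 1 they were 3, msl-1, msl-3 and mof (58.1% of protein-coding genes in each). Other settings on the pooled peaks gave 2 members at 200 bp from a TSS (15.0% of protein-coding genes) and 2 at 1000 bp (18.9%). There were also 2 with any base of the peak within 500 bp (18.0%) and with the TSS of the longest coding transcript alone (16.3%). At an IDR of 0.001 there was 1 member, msl-1 (12%), and at 0.05, a limit chosen after seeing the data, there were 3, with mof (20.4%). With 5 genes, these counts describe the genes and say nothing of whether they had peaks more often than others.

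**Figure D1:**
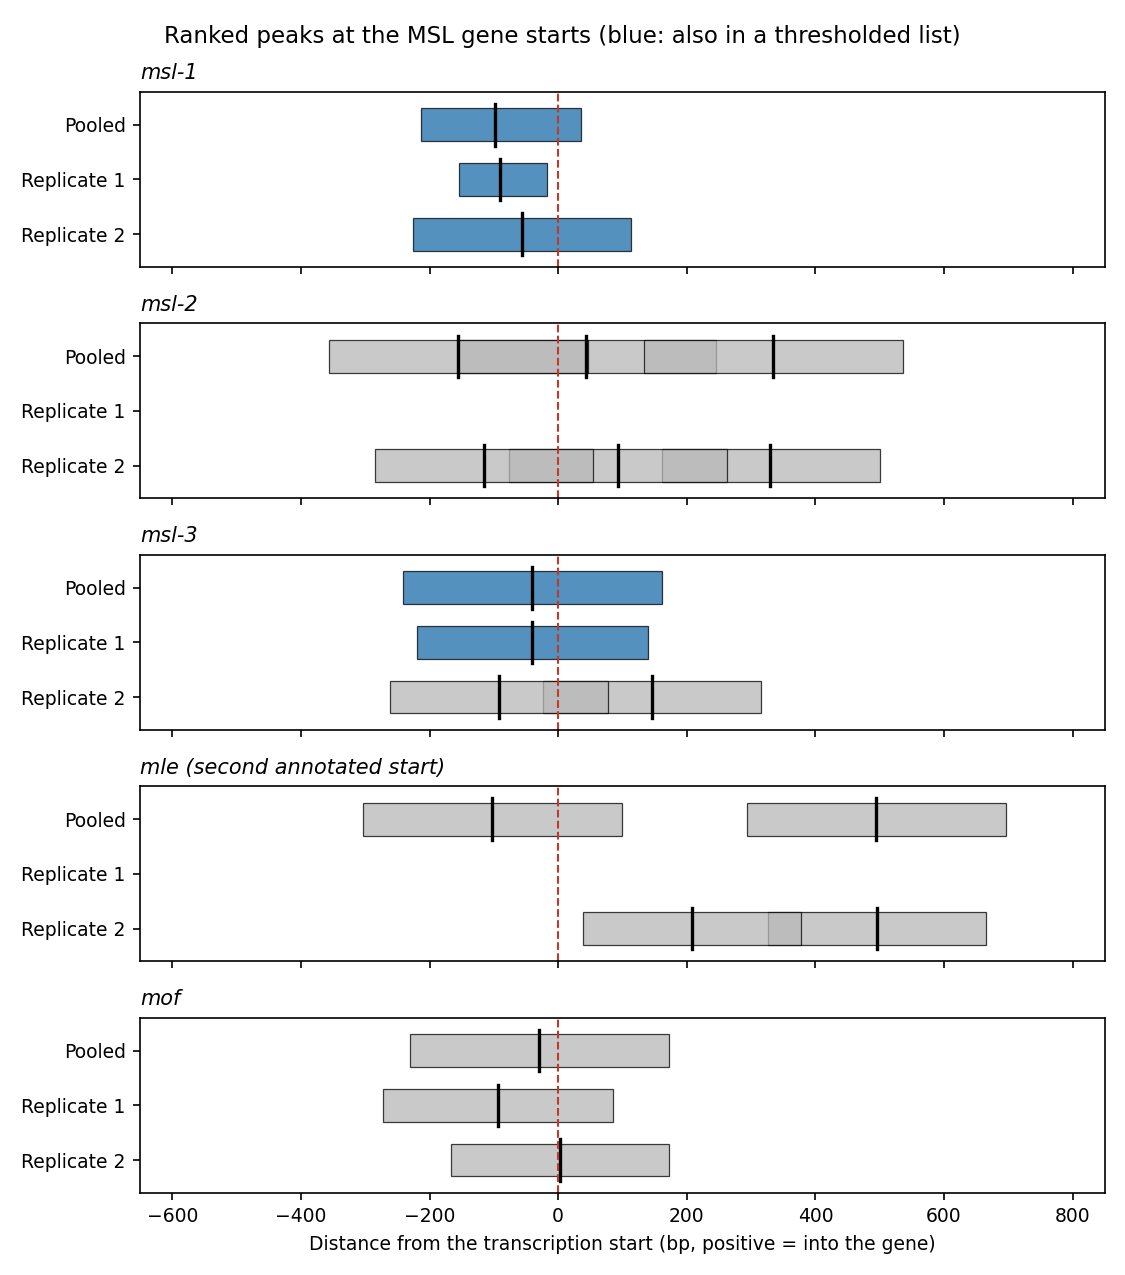
Ranked peaks at the start of each MSL gene, with distance from the TSS in bp on the x axis and 1 row each for the pooled list, replicate 1 and replicate 2. Bars are peaks, black ticks their summits, the dashed line the TSS, and blue bars are also in the thresholded list of that row; only msl-1 is blue in all 3 rows, and replicate 1 has no bar at msl-2 or mle.

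The scaffold gene msl-1 (FBgn0005617, 2L, 18683720 to 18688800, minus strand) had the strongest peak of the complex. It spanned 18688764 to 18689013 in the pooled lists, with a signal of 131, rank 425 of the 2067 pooled thresholded peaks and rank 423 of the 2017 conservative ones. That is above 79.4% of pooled thresholded peaks, whose median signal was 77.6. Its summit lay 98 bp upstream of the single annotated TSS, in the stretch printed above. At 250 bp it was shorter than the median peak of 404 bp.

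Both replicates carried the msl-1 peak. Replicate 1 gave it a signal of 78.6 and rank 393 of 1681, with the summit 90 bp upstream, and replicate 2 a signal of 48.0 and rank 604 of 1347, with the summit 57 bp upstream. The summits were 33 bp apart, and the whole 138 bp of the replicate 1 peak lay inside the 340 bp peak of replicate 2. As signals of the replicates have no common scale, ranks within each ranked list are used to set them side by side: msl-1 stood 1.0% from the top in replicate 1 and 1.33% in replicate 2. The −log10 IDR was 4.38 and 4.36 in the pooled ranked lists, 5.0 (the highest value the lists hold) in replicate 1 and 3.83 in replicate 2. No other gene had a TSS within 500 bp of this summit.

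A separate thresholded peak lay next to it. Its summit, 796 bp upstream of the msl-1 TSS, was the nearest outside the 500 bp window and 68 bp from a start of CG10336, which runs in the opposite direction from a start 728 bp away. That peak had a signal of 68.1 and rank 1190, and ranked 1338 in replicate 1 and 929 in replicate 2. The msl-1 and CG10336 starts are therefore marked by a peak each, not by a shared one.

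The chromodomain gene msl-3 (FBgn0002775, 3L, 7123213 to 7125533, minus strand) had a weaker peak that the lists do not treat alike. It spanned 7125371 to 7125774 with a signal of 54.8 and rank 1447 of 2067, above 30.0% of pooled thresholded peaks. The summit was 40 bp upstream of the TSS. BBS1, named for the Bardet-Biedl syndrome gene family of cilia, starts 372 bp away on the opposite strand and also lies within 500 bp, but the msl-3 TSS was the nearer.

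Replicate 1 placed the msl-3 summit at the same base, with a signal of 39.2, rank 1188 of 1681 and a −log10 IDR of 2.6. Replicate 2 had no thresholded peak there. Its ranked list held a pair of weaker summits, 146 bp downstream of the TSS with a signal of 15.8, rank 3553 of 47717 and a −log10 IDR of 0.363, and 92 bp upstream with a signal of 6.54, rank 29903 and 0.028. The stronger of them was 186 bp from the summit of replicate 1 and shared 164 bp with its peak, or 45.6% of the peak of replicate 1 and 48.2% of that of replicate 2. The weaker summit of replicate 2, 92 bp upstream, was nearer to that of replicate 1, and its peak overlapped more of the replicate 1 peak. In the pooled ranked list the msl-3 peak had a −log10 IDR of 2.46 (IDR 0.00349), and in the second pooled ranked list, at the same coordinates and signal, 0.064 (IDR 0.864). The call at msl-3 thus came with replicate 1 and the pooled reads, and it was missing from the thresholded list of replicate 2 and from the conservative list.

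The acetyltransferase gene mof (FBgn0014340, X, 5873840 to 5876853, minus strand) is the X-linked member, and its peak fell just short of the threshold. The pooled peak, 5876681 to 5877084, had a signal of 36.4, rank 2283 of 47947 and a −log10 IDR of 1.64 (IDR 0.0229). The second pooled ranked list gave 1.49 (IDR 0.0323). Of the pooled thresholded peaks, 255 (12.3%) had a lower signal than this one, since the threshold acts on the IDR and not on the signal. The summit was 30 bp upstream of the TSS, in the 146 bp between mof and the 3' end of Usp30, which reads the same way.

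The replicates ordered mof the other way round from msl-3. Replicate 2 ranked it 1513 of 47717, with a signal of 25.1, a −log10 IDR of 1.72 and the summit 3 bp downstream of the TSS. Replicate 1 ranked it 4308 of 40775, with a signal of 16.4, 0.219 and the summit 94 bp upstream. These positions are 3.17% and 10.6% from the top, while msl-3 stood at 7.45% in replicate 2 and 3.1% in replicate 1. The 7.45% is for the stronger msl-3 summit of replicate 2, 146 bp downstream of the TSS. Its other summit there, 92 bp upstream, stood at 62.7%. The mof summits were 97 bp apart and the peaks shared 253 bp, which is 70.3% of the peak of replicate 1 and 74.4% of that of replicate 2. With 2 replicates and 1 value each, no test of a difference between replicates at these genes was possible.

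**Figure D2:**
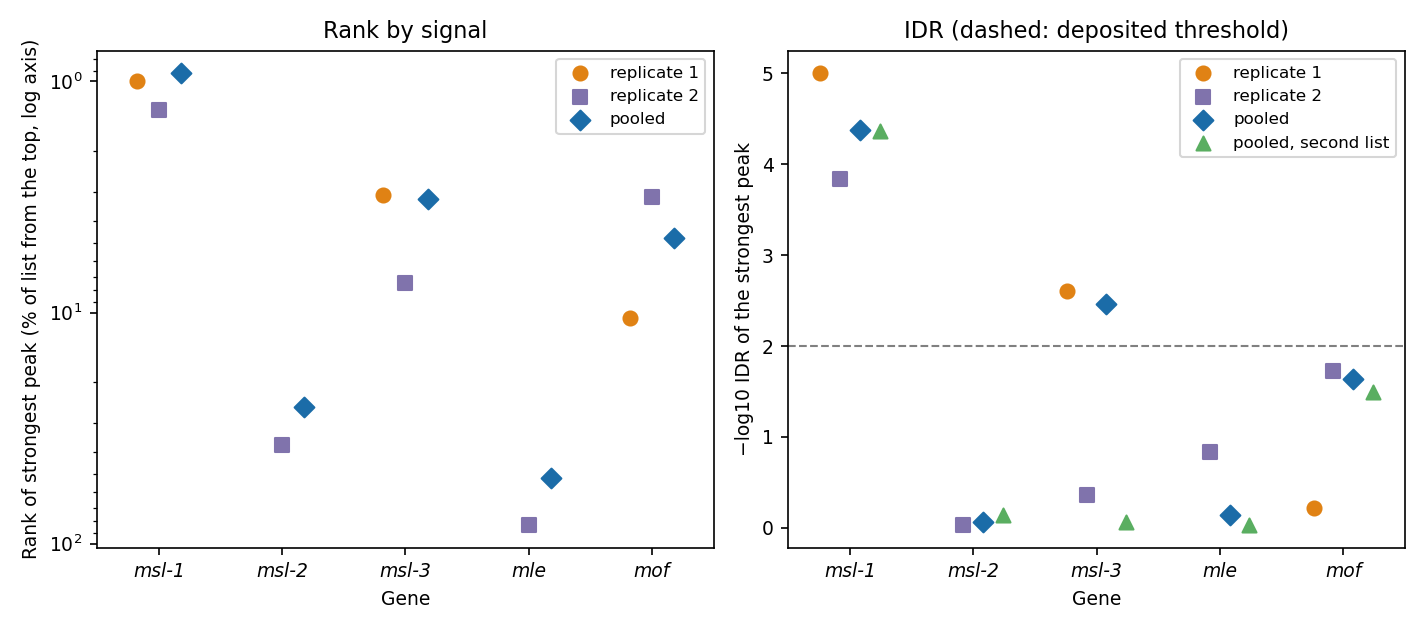
Left, rank by signal of each gene's strongest promoter peak as a percent of the ranked list from the top, on a log axis with the strongest at the top; right, its −log10 IDR, with the threshold of 2 dashed. Points are replicate 1, replicate 2 and the pooled lists; msl-1 is above the dashed line in all 4 lists, msl-3 in 2 of them and mof in none, with pooled values of 1.64 and 1.49.

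The gene of the limiting subunit, msl-2 (FBgn0005616, 2L, 3462218 to 3466112, minus strand), had no thresholded peak in any of the lists. Its start lies head to head with that of ND-PDSW, a subunit gene of mitochondrial complex I, only 45 bp away, and the summits given here were within 500 bp of both. The pooled ranked list held 3, 44 bp downstream with a signal of 17.1, 156 bp upstream with 15.0 and 334 bp downstream with 14.2. Their −log10 IDR values were 0.063, 0.063 and 0.1, and the strongest ranked 12252 of 47947. Replicate 2 also had 3, at most 8.92 in signal and each with a −log10 IDR of 0.028. Replicate 1 had none within 500 bp, its nearest lying 958 bp from the msl-2 TSS. The nearest thresholded peak was 3895 bp away, 3 bp from a start of Pif1, with a signal of 128.

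The helicase gene mle (FBgn0002774, 2R, 5974857 to 5980778, minus strand) had the lowest promoter signal of the 5 in the pooled ranked list. It has 2 annotated starts 677 bp apart. No list had a summit within 500 bp of the upstream one. At the downstream one the pooled ranked list had summits 103 bp upstream and 495 bp downstream, just inside the window, with signals of 12.3 and 6.3 and −log10 IDR values of 0.141 and 0.3. The stronger ranked 25006 of 47947, below the median signal of that list, 12.6. Replicate 2 had summits 208 and 496 bp downstream with signals of 4.23 and 4.79 and −log10 IDR values of 0.065 and 0.838. The last value is above the 0.363 of the stronger msl-3 summit in that list. Replicate 1 had no summit at mle. The nearest summit outside the window in the pooled ranked list was 983 bp away and 83 bp from a start of Src42A.

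Set among all genes, the members ranged from 7.6% (msl-1) to 83.3% (mle) from the top in promoter signal. Of the 8491 protein-coding genes with a promoter summit in the pooled ranked list, msl-1 ranked 645, msl-3 2086, mof 2813, msl-2 5634 and mle 7070. The middle gene of that order had a signal of 22.8, which msl-1, msl-3 and mof exceeded and msl-2 and mle did not. In replicate 2 the ranks among 8104 genes were 912 for msl-1, 2045 for mof, 3139 for msl-3, 5713 for msl-2 and 7715 for mle. In replicate 1 the 3 members with a summit ranked 592, 1754 and 3745 of 8102 for msl-1, msl-3 and mof. So msl-1 came first in both replicates, and msl-3 and mof changed places between them.

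**Figure D3:**
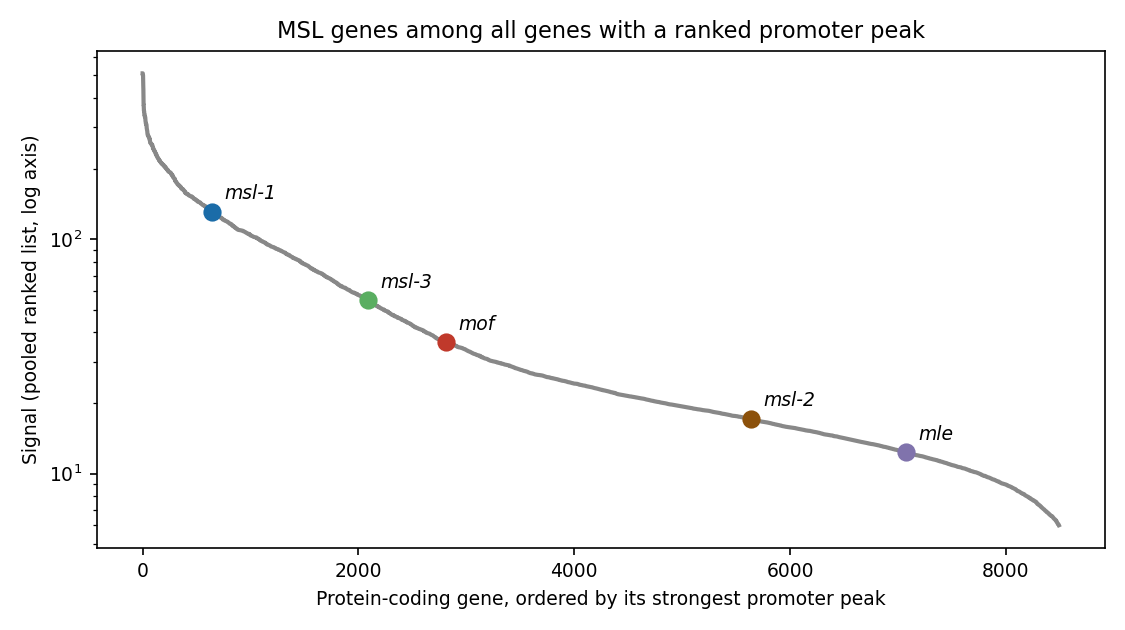
Signal of the strongest promoter peak in the pooled ranked list, on a log axis, for the 8491 protein-coding genes that have one, ordered by signal (grey line). The 5 MSL genes are marked; msl-1 with 131 lies at the strong end and mle with 12.3 on the weak tail.

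Genes with the most similar ranks were sought over the ranked lists of the 2 replicates, as a distance in log10 rank among the 6119 other protein-coding genes with a promoter summit in both. The strongest promoter summit of a gene in each list was used, also where the replicates placed it differently. For msl-1 they were dwg (ranks 397 and 609 in replicates 1 and 2, distance 0.0217), Cdk2 (413 and 596) and Su(P) (406 and 675), beside 409 and 634 for msl-1. For msl-3, with ranks 1266 and 3553, they were BRWD3 (1286 and 3626, distance 0.0112), Cdc14 and CG12895. For mof, with 4308 and 1513, they were mod (4338 and 1547, distance 0.0101), bgcn and RpS15Aa. Rank over 2 samples is all that these genes share here. Neither msl-2 nor mle had a summit in replicate 1, so none was sought for them.

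Partners and regulators of the complex were described from a list of 11 genes, of which 9 are protein-coding. In the pooled thresholded list 4 of the 11 had a peak, all of them protein-coding, beside the 17.3% of all protein-coding genes. This list and that of the NSL genes below were chosen with earlier results of these data known. Their counts therefore do not show whether such genes had peaks more often than others. JIL-1, the histone H3 kinase enriched on the male X, had a signal of 126, rank 458 of 2067, and ranked 834 of 1681 in replicate 1 and 331 of 1347 in replicate 2. Its summit was 57 bp upstream of its TSS. The nucleoporin gene Nup153 had 121, at a promoter shared with CG9784, whose TSS was the nearer, and Top2, the DNA topoisomerase II gene, had 97.5. These 3 were in every thresholded list. Mgtor, the nucleoporin gene entered in the list as Mtor, had 43.9 in the pooled thresholded list and was in no other thresholded list.

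The remaining 7 had no thresholded peak. The RNA genes roX1 and roX2, which form the RNA part of the complex and are themselves sites where it gathers, had pooled ranked signals of 15.5 and 26.7 and −log10 IDR values of 0.099 and 0.329. Sxl stood at 15.8, Unr at 18.7 and how, an RNA-binding protein gene, at 15.9. Clamp, which encodes the zinc finger protein that binds GA repeats and helps bring the complex to the X, had no summit in the pooled ranked list and 1 of signal 7.75 in replicate 1. The heterochromatin gene Su(var)3-7 was likewise without a pooled summit, with 6.34 in replicate 1.

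Of 8 genes for the NSL complex and its partners, 2 had a peak, in each of the thresholded lists, beside 17.3% of protein-coding genes in the pooled, 16.8% in the conservative, 14.9% in the replicate 1 and 12.2% in the replicate 2 list. The scaffold gene nsl1 had a signal of 215 and rank 102 of 2067, higher than any MSL gene, with ranks of 131 in replicate 1 and 96 in replicate 2 and its summit 186 bp upstream. MBD-R2, a further subunit, had 79.6, rank 1000, with 1212 and 677 in replicates 1 and 2. The pooled ranked signals of the others were 29.1 for pzg, 27.4 for Rcd1, 18.5 for wds, 17.3 for Chro, 13.4 for dgt1 and 11.5 for Rcd5, and the strongest −log10 IDR among them was 0.55, at Chro. The summits at Rcd1 and Rcd5 were nearer to starts of pea and CG11593.

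**Figure D4:**
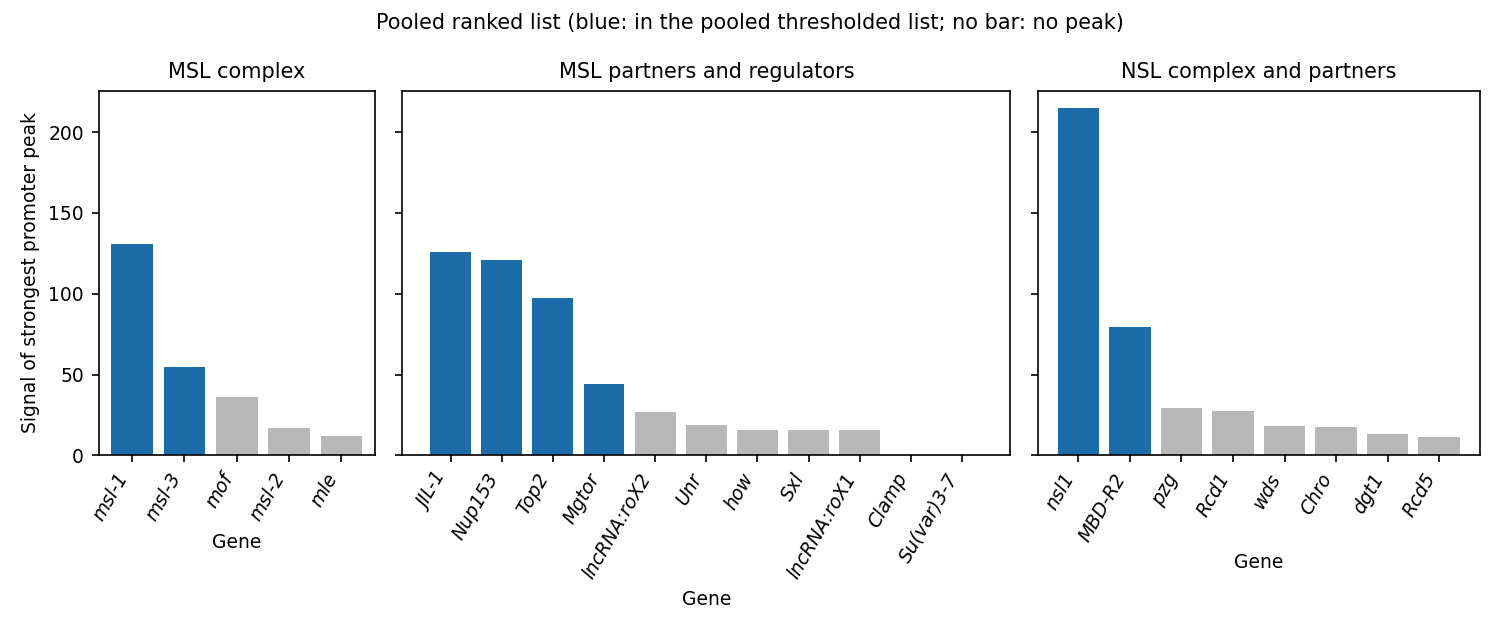
Signal of the strongest promoter peak in the pooled ranked list for the MSL genes, the 11 partners and regulators and the 8 NSL genes. Blue bars are in the pooled thresholded list (2, 4 and 2 genes), grey bars only in the ranked list, and Clamp and Su(var)3-7 have no bar; nsl1 is highest with 215.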

How the data were processed

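Peak lists of the 2 replicates and of their pooled reads were deposited by the authors on dm6, per the labels; chromatin had been sheared by sonication to 200 to 800 bp. The aligner and the peak caller were not given in the sources used. The deposited signal of a peak is the authors' value, on a scale that is not stated. The deposited score follows the IDR and is capped at 1000. The −log10 IDR was read from the deposited ranked lists, and every thresholded peak was at 2 or above there. For the pooled lists this was set by the matching. Each pooled thresholded list was matched to the pooled ranked list in which all its peaks were at 2 or above. A further 8 value columns in each ranked list were not used, because nothing ties them to a sample. Read depth is unknown.

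Summits, counted from 1, were joined to every TSS of Ensembl release 115 (BDGP 6.54) within 500 bp, after arm lengths were compared with NCBI Release 6. The join was tested on simulated summits. Peaks were ranked by signal within each whole list. Python 3.11.15, pandas 2.3.3 and Matplotlib 3.10.9 were used. The members, lists, motifs and naming rule (members, their neighbours, both lists, and the 3 genes nearest in rank) were chosen with earlier results of these data known. No test was run. Alternatives were other TSS distances, peak lists, IDR limits, TSS sets and motif windows.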

Additional observations from a re-analysis of the deposited data

How the results depend on the processing

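The count of MSL genes with a thresholded peak, 2 of 5, was 1 (msl-1) in the conservative list and at an IDR of 0.001, and ran from 1 without replicate 1 to 2 without replicate 2. It was 2 at TSS distances of 200 and 1000 bp, with any base of the peak, and with the longest coding transcript's TSS alone. At an IDR of 0.05, a limit chosen after seeing the data, it was 3, as mof joined; the share of all protein-coding genes moved too, to 20.4% at 0.05 and 12% at 0.001. For the 19 partners, regulators and NSL genes, of which 17 are protein-coding, the count was 6 in the pooled thresholded list. It was 5 in the conservative list and with either replicate alone, where Mgtor was missing. Shares of all protein-coding genes were 17.3% (pooled), 16.8% (conservative), 14.9% (replicate 1) and 12.2% (replicate 2). TATCGAT was at the pooled summits of msl-3 and mof with windows of 50, 100 and 200 bp each side. The summits of each replicate were not used for this. In rank as a percent of the list from the top, msl-3 ran from 3.1 to 7.45 and mof from 3.17 to 10.6 with 1 replicate left out. Without replicate 2, msl-2 and mle gave no value. No paired analysis was possible because there is 1 group. Depth is unknown, so a missing peak is not evidence of absence.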

Other observations

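The pooled thresholded list had no summit within the transcribed span of any of the 5 MSL genes. The pooled ranked list had 4 summits in mle, 4 in msl-2, 2 in msl-1, 2 in mof and 1 in msl-3, with highest signals of 20.4, 18.9, 21.3, 17.2 and 18.2. The share of all protein-coding genes with a summit in their span was not counted. Whether these numbers are usual for a gene is therefore not known.

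Thresholded peaks lay beside the 3' ends of mle and mof, at the starts of the next genes. A thresholded peak with a signal of 130.0 and rank 429 had its summit 428 bp past the 3' end of mle and 44 bp from a start of BubR1, the spindle checkpoint kinase gene. It ranked 532 in replicate 1 and 367 in replicate 2. A weaker one, with a signal of 7.77 and its summit 229 bp past the same end, overlapped that peak. The best replicate peaks overlapping the weaker one had the same ranks, 532 and 367. Beyond mof, a peak with a signal of 56.8 and rank 1413 had its summit 495 bp past the 3' end and 12 bp from a start of GAA1; it was in the thresholded list of replicate 2, at rank 887, and not in that of replicate 1.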
